A study of Mus musculus with 12 samples.

Results

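The 3 adult littermate pairs of a study on Nr5a1 dosage are described here, as 6 of its 12 adrenal microarrays. These were the arrays whose titles give an age of 4 months and 2 transgene copies, which takes in 3 of the 6 pairs of mice. Each pair set a mouse of transgenic line #56, homozygous for an Ftz-F1 transgene on a yeast artificial chromosome (YAC), against a wild-type littermate of its own sex and age. Pairs 1 and 3 were male and pair 5 was female, each pair being named by the number of its transgenic mouse, and each was hybridized on 2 arrays with the dyes Cy3 and Cy5 exchanged. The other 3 pairs, numbered 11, 13 and 15, were 10 days old and their transgenic mice were heterozygous with 1 copy, so age and copy number cannot be told apart between the groups. All transgenic mice came from a single line, and the sources used here give neither the genetic background nor the other genes on the YAC.

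Ftz-F1, now named Nr5a1, encodes steroidogenic factor 1 (SF-1), a nuclear receptor that the adrenal cortex needs to form and to make steroids. In the cortex, cholesterol is carried into the mitochondrion by the Star protein, cut by Cyp11a1 and passed along a chain of enzymes to aldosterone in the outer zone and corticosterone in the zone within. In the mouse an additional inner layer, the X-zone, disappears at puberty in males and persists in females until pregnancy or later. The medulla at the centre holds chromaffin cells, which derive from the neural crest, make catecholamines and depend on cortical steroid for the last step to adrenaline. The pairs ask which genes differ in the adult adrenal when the Nr5a1 gene is present in extra copies.

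Values are log2 ratios within a pair, after the trend of each array's ratio on spot signal was removed by loess and the 2 arrays of the pair were averaged. A value of 1 is therefore a 2-fold difference between the littermates. The sources used here do not say whether transgenic over wild type or its inverse was deposited, so signs are reported as deposited. The 2 arrays of a 4-month pair ran the same way: after the mean over all pairs in each dye orientation was taken off, they correlated at r = 0.232 to 0.658 over 22438 probes. Arrays of different pairs correlated at -0.283 to 0.119. Taking off that mean removes what the pairs share along with the dye effect. It also lowers the correlation between different pairs, so the second range is not a fair benchmark. That all pairs share a direction was taken from their common layout. No depth exists for arrays, and the number of pairs limits the precision. A feature, which is a gene or a probe without a gene name, was tested when at least 2 pairs of each group had a value, and 21511 features were. Of 12 adrenal cortex markers 11 were tested, all on spots brighter than the median feature and 8 in the top 10% by brightness, and 28 of 32 chromaffin markers were brighter than the median feature. Cyp11b1, the corticosterone-forming enzyme, was among the features not tested.

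Nr5a1, the gene the transgene carries, had ratios of -0.46, 0.12 and -0.22 in pairs 1, 3 and 5. Its mean was -0.19 ± 0.29 (SD, n = 3 pairs, as for all means below), with a limma adjusted p of 0.568, and its 6 arrays ran from -0.97 to 0.43. Pairs 1 and 5 were negative and pair 3 was positive, so the adult pairs did not differ from 0 in a single direction. A gain of Nr5a1 message would be positive if transgenic over wild type was deposited and negative if the inverse was. The adult values do not settle which, and on uncorrected arrays the mean was 0.15. In the 10-day pairs 11, 13 and 15 Nr5a1 was negative throughout, at -0.57, -0.65 and -0.78. Among its chromosomal neighbours by RefSeq gene order, Psmb7, a proteasome subunit, was at -0.37, -0.76 and -0.55 at 4 months and at -0.39, -0.53 and -0.49 at 10 days, and Nek6, a mitotic kinase, was negative on all 6 adult arrays with a mean of -0.45 ± 0.13. Lhx2, a developmental homeobox gene, was also negative in all adult pairs at -0.90, -0.11 and -0.72, whereas Dennd1a, a Rab activator, was positive in all 6 pairs, at 0.20, 0.49 and 0.11 at 4 months and 0.33, 0.41 and 0.19 at 10 days. Of the other neighbours, Nr6a1 had a mean of -0.15 ± 0.063, Olfml2a of -0.053 ± 0.10, Wdr38 of 0.021 ± 0.30 and Rpl35 of -0.059 ± 0.070. The log2 spot signal recovered for Rpl35 was 0.0, which arises where both channels read the same, so its value near 0 says little.

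No feature passed an adjusted p of 0.05 for the 4-month mean in limma (0 of 21511, 0.0%), and the smallest adjusted p was 0.138. At an unadjusted p under 0.05 there were 1311 positive features (6.09%) and 1344 negative ones (6.25%). On all 6 arrays 1004 features were positive (4.67%) and 847 were negative (3.94%). The same sign in all 3 pairs was found for 34.5% of features, 3714 positive and 3706 negative, with a median SD between pairs of 0.203. An ordinary linear model without moderation also gave 0 features past the threshold. A fit of all 12 arrays with a dye term and the pair as a random block gave 290, and it weighs the 2 arrays of a pair as partly independent (estimated correlation 0.299). Leaving the arrays uncorrected moved the median of all features from -0.0093 to 0.37 and called 2532 features, and 97.8% of its calls at an unadjusted p were positive against 49.4%, so signs near 0 depend on the correction. Every gene value below is therefore a description of 3 pairs, and counts at the unadjusted p are to be read against the percentages above.

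The 12 genes of smallest p on the positive side with the same sign on all 6 arrays included several known from neurons and endocrine cells. Gal, the neuropeptide galanin, was at 1.31, 1.12 and 1.25 in pairs 1, 3 and 5, a mean of 1.22 ± 0.098 (adjusted p 0.209). Its pairs lay close together, and the 10-day mean was much the same at 1.18. Chst8, which sulfates sugar chains of pituitary glycoprotein hormones, was at 1.19, 1.20 and 1.07, and its 10-day mean was only 0.096. Hs3st2, a heparan sulfate sulfotransferase, was at 1.22, 0.87 and 0.88, with an adjusted p of 0.138 and a 10-day mean of 0.23. For both sulfotransferases every adult pair was above the 10-day mean. Pcsk1, the convertase that cuts prohormones in secretory granules, was at 1.01, 0.69 and 0.71. Scg5, a granule protein that guards another convertase, was at 0.84, 0.64 and 0.78. For both, the 3 pairs lay close together. Npy2r, a neuropeptide Y receptor, had a mean of 0.70 ± 0.10. Stmn3, a neuronal microtubule regulator, had a mean of 0.79 ± 0.12. Lynx1, a modulator of nicotinic acetylcholine receptors, was larger and more spread at 1.60, 2.01 and 0.74, highest in the male pairs. Ncald, a neuronal calcium sensor, likewise peaked in pair 3 at 0.89, 1.48 and 0.72. Of the remaining positive genes, Nectin2, a cell adhesion protein, was at 0.72, 1.27 and 0.93, Srl, a calcium-binding protein, had a mean of 0.75 ± 0.18, and Samt3 had a mean of 0.89 ± 0.13 with an adjusted p of 0.138.

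The 12 negative genes chosen the same way included genes of cell contacts, of the cytoskeleton and of leukocytes. Gja1, the main gap junction connexin of the cortex, was at -1.21, -1.28 and -1.05 in pairs 1, 3 and 5 and at a mean of -0.87 in the 10-day pairs. The adult mean was -1.18 ± 0.12 (adjusted p 0.138), and no pair stood apart. Epb41l3, which ties the membrane to the cytoskeleton, was at -1.12, -1.02 and -0.79, while its 10-day mean was -0.13. Bcl2l12 had the smallest spread of these genes, with ratios of -0.90, -0.83 and -0.92 and a 10-day mean of -0.089. Mgst1, a microsomal glutathione transferase, was lowest in pair 1, with a mean of -0.80 ± 0.18. Cep131, a centrosomal protein, was lowest in the male pairs at -1.95, -1.48 and -0.66. Irf8, a transcription factor of macrophages and dendritic cells, was at -0.61, -1.47 and -1.24 and so mildest in pair 1. Ms4a7, a macrophage surface gene, had the same order at -0.72, -2.09 and -1.90. Myo1f, a leukocyte myosin, was at -0.96, -1.64 and -0.87 and lowest in pair 3. Slfn8 (mean -0.70 ± 0.12), Skint4 (-0.73 ± 0.098), Dennd2d (-1.06 ± 0.49) and Zmynd15 (-0.94 ± 0.34) completed the 12 negative genes.

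**Figure D1:**
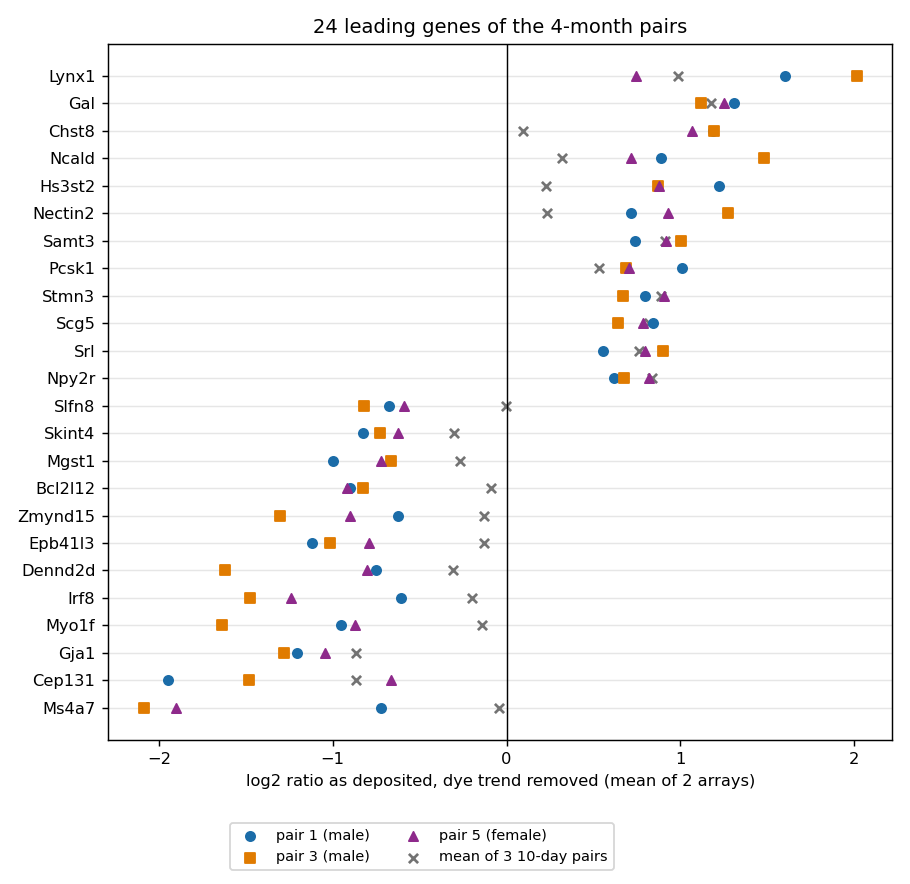
The horizontal axis is the log2 ratio as deposited for the 24 genes of smallest p with the same sign on all 6 arrays, 12 on each side, and each row holds pairs 1, 3 and 5 and the mean of the 10-day pairs as a cross. Genes such as Gal and Stmn3 have the cross among the adult points, while Chst8, Hs3st2 and Epb41l3 have it near 0.

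Larger means were found among genes that varied more between pairs, such as Ly6d and Adh7. The mean exceeded 1 for 27 features, of which 20 were positive on all 6 arrays, and lay under -1 for 131, of which 63 were negative on all 6. Ly6d, a surface protein of the Ly6 family, had the largest mean and was chosen after its values were seen: 3.37, 3.40 and 1.15 in pairs 1, 3 and 5. Its male pairs stood well above the female pair, all 6 arrays were positive, and the 10-day pairs were at 1.51, 2.68 and 3.02. Adh7, an alcohol dehydrogenase that acts on retinol, was also chosen after its values were seen. It was at -0.83, -2.92 and -3.94, lowest in the female pair, with a 10-day mean of -1.95.

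Chromaffin genes were mostly positive. Of 36 listed, 32 were tested and 27 were positive; 13 were positive and 2 negative at an unadjusted p under 0.05, and 10 were positive on all 6 arrays. The list median was 0.34, against -0.0093 for all features. By pair it was 0.20, 0.59 and 0.33, and over the 10-day means it was 0.28. Without pair 3 it was 0.24 and without pair 1 it was 0.52. In whole adrenals, more or fewer cells of a type and more or less RNA per cell cannot be told apart. Th, tyrosine hydroxylase, which sets the rate at which catecholamines are made, was at 0.66, 0.77 and 1.30. Pnmt, which turns noradrenaline into adrenaline, was at 0.56, 1.35 and 1.77. For both the female pair was highest and no pair was negative. Ddc and Dbh, the enzymes between them, were lower, with means of 0.25 ± 0.22 and 0.25 ± 0.55. Npy, a peptide released with the amines, was at 0.85, 0.59 and 1.64, positive on all 6 arrays, with a 10-day mean of 1.24. The vesicle transporters that load amines were positive too: Slc18a1 was at 0.080, 1.01 and 0.68 and Slc18a2 was at 0.30, 0.75 and 0.34. Cyb561, the granule electron carrier, was at 0.82, 1.24 and 0.32. Gata3, a transcription factor of sympathoadrenal cells, had a mean of 0.57 ± 0.36, and Scg3, a granule protein, had a mean of 0.48 ± 0.46.

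Members of the chromaffin list on the other side included Vip and Chga. Vip, vasoactive intestinal peptide, was at -0.76, -0.44 and -0.64 and negative on all 6 arrays, with a 10-day mean of -0.54. Chga, the bulk granule protein, was at -0.34, -0.31 and -0.29, on a spot near the scanner's upper limit. Chgb and Penk, also granule cargo, were close to 0 at -0.075 ± 0.17 and 0.043 ± 0.32. The members of the list thus did not share a single sign after the correction. On uncorrected arrays 31 of the 32 tested were positive and 1 was negative. A list of 35 general neuronal and exocytosis genes centred near 0: 15 of 31 tested were positive, 4 at an unadjusted p under 0.05 against 0 negative, and the median was -0.0049. Rab3c, a secretory GTPase, was at 0.38, 0.74 and 0.51, and Gap43, a growth cone protein, had a mean of 0.33 ± 0.12. Schwann cell and glial genes had a median of -0.084 over 10 tested, with Sox10, their lineage factor, at -0.30 ± 0.065 and at 0.042 on uncorrected arrays.

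Promoters of Th and Pcsk1, from the chromaffin list, and of the sulfotransferase gene Hs3st2 are shown as examples. All 3 hold the cyclic AMP response element TGACGTCA, the site bound by CREB factors, and were positive in every pair. Slc18a2 and Nectin2, whose promoters are not printed, also held the element in their windows and were positive in every pair. Each run below gives the 150 bases before the RefSeq start (GRCm38.p6), 5′ to 3′ on the gene's strand, with the element in capitals.
Th, chr7:142899996-142900145, minus strand: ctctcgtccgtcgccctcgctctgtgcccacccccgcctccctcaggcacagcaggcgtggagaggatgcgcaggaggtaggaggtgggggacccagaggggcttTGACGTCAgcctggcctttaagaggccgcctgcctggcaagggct
Pcsk1, chr13:75089707-75089856, plus strand: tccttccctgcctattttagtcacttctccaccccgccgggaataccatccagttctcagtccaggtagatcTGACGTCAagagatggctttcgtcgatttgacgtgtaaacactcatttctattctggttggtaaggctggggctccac
Hs3st2, chr7:121392146-121392295, plus strand: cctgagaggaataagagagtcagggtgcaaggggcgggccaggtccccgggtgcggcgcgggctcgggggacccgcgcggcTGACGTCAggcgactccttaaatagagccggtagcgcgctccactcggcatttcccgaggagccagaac
The element begins 45 bases before the start in Th, 78 in Pcsk1 and 69 in Hs3st2. Both strands of 300-base windows, from 250 bases before to 50 after the start, were searched, and the element reads the same on both. It was present for 6 of 22 chromaffin genes with a window in the table (27.3%), namely Cartpt, Chgb, Pcsk1, Scg2, Slc18a2 and Th. Among the 24 leading genes 20 had a window and 3 held it (15.0%), against 2.03% of 27025 genes. Its carriers were not alike in ratio, since Th and Pcsk1 were positive while Chgb was near 0. A match describes letters only and shows no binding.

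Steroidogenic genes showed no common sign. Of 22 listed, 16 were tested, 8 on each side, with 3 positive and 2 negative at an unadjusted p under 0.05 and a median of 0.0033. Cyp11a1, the side-chain cleavage enzyme that starts steroid synthesis, was at 1.14, 1.05 and 0.31 and positive on all 6 arrays, although the arrays of pair 1 read 2.22 and 0.054. Fdx1, the ferredoxin that feeds it electrons, followed it at 1.11, 0.89 and 0.14. The Fdx1 arrays read 2.49 and -0.28 in pair 1 and 0.53 and -0.26 in pair 5, so its sign differed by dye there. On average both genes were lower in the female pair than in the male ones. Stard5, a cytosolic cholesterol carrier, was at 1.00, 0.25 and 0.37 and positive on all 6 arrays. Cyb5a, the cytochrome that helps Cyp17a1 make androgens, was at -1.10, -1.04 and -0.36, negative on all 6 arrays (adjusted p 0.209) and again mildest in the female pair. Hsd3b1, the next enzyme after Cyp11a1, was near 0 in every pair at -0.20, -0.12 and 0.15. Cyp21a1, the 21-hydroxylase, which has a near-identical pseudogene, had pairs of both signs at -1.41, 1.64 and 0.75, with a 10-day mean of -2.30. Cyp11b2, aldosterone synthase, was at -0.65, -0.051 and 0.037. Alas1, which starts heme synthesis, was as divided at -1.21, 1.48 and -0.37. Star gave 1.48, 0.86 and -2.04, but its 2 dye orientations differed by up to 5.96 in a pair, so its mean says little. Tspo, a mitochondrial membrane protein, had a mean of 0.040 ± 0.54.

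Classic SF-1 target genes were likewise divided. Of 25 listed, 19 were tested, 8 positive and 11 negative, with 3 and 2 at an unadjusted p under 0.05. The median was -0.033, and by pair it was -0.20, 0.31 and -0.14. Nr0b1, which encodes DAX-1, a repressor of SF-1 that SF-1 itself induces, was at -0.92, -0.54 and -0.33. Scarb1, the receptor that takes up cholesterol from lipoproteins, was at 0.20, 0.68 and 0.25. Their pair means had opposite signs, but both split by dye: in pair 1 Nr0b1 read -1.89 and 0.056 and Scarb1 read 0.92 and -0.53. Vnn1, a pantetheinase gene, was at -1.02, -1.46 and -2.43, negative on all 6 adult arrays (adjusted p 0.406), whereas its 10-day pairs were at -1.18, -2.89 and 1.68. Hmgcs1, a cholesterol synthesis enzyme, had a mean of -0.48 ± 0.20. Mc2r and Mrap, the ACTH receptor and its partner, were near 0 at -0.045 ± 0.56 and 0.036 ± 0.49. Within ACTH and angiotensin signalling 25 genes were tested, and at an unadjusted p under 0.05 only Prkar2b, a regulatory subunit of protein kinase A, stood out, at 0.67, 0.83 and 0.54 and positive on all 6 arrays.

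**Figure D2:**
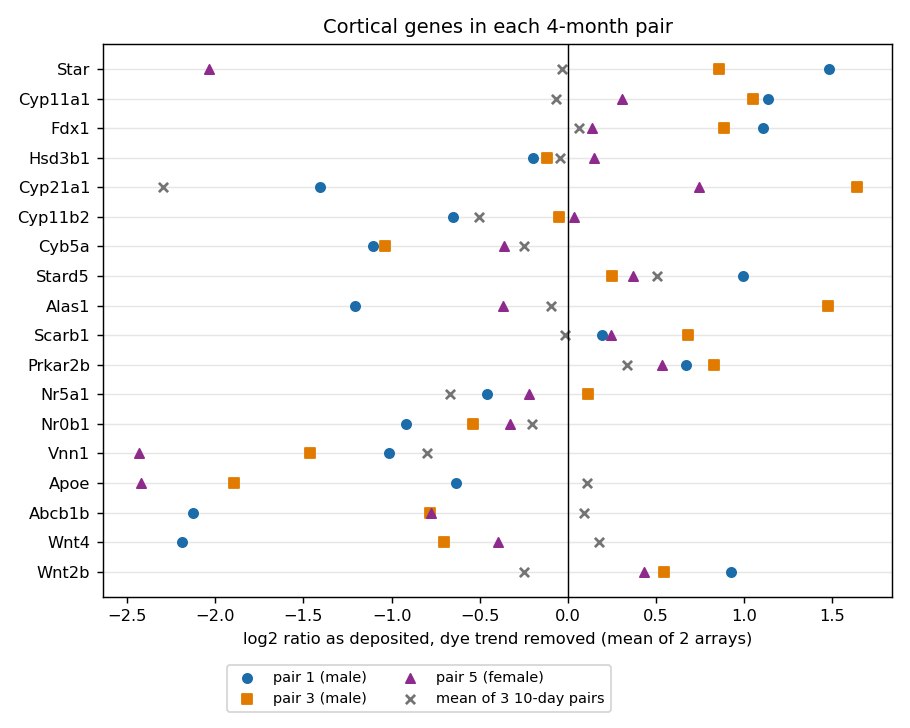
Log2 ratios as deposited on the horizontal axis for 18 cortical genes, with pairs 1, 3 and 5 as separate symbols and the mean of the 10-day pairs as a cross. Cyp11a1 and Fdx1 have the male pairs near 1, Vnn1, Apoe, Abcb1b and Wnt4 are negative in all 3 pairs, and Star, Cyp21a1 and Alas1 have pairs on both sides of 0.

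The promoter of Dennd2d is shown as the only one of 20 leading genes whose window held the SF-1 recognition sequence AAGGTCA, given in capitals, over the 150 bases before the start.
Dennd2d, chr3:106485890-106486039, plus strand: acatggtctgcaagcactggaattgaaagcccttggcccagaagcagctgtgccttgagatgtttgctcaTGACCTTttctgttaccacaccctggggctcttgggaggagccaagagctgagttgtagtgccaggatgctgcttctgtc
The match begins 80 bases before the start. Dennd2d, which activates a Rab GTPase, was at -0.75, -1.62 and -0.80 in pairs 1, 3 and 5. On either strand this sequence was in the windows of 5.38% of all genes, of 5.0% of the leading genes and of 2 of 11 SF-1 target genes (18.2%), Hmgcs1 and Lhb. Known SF-1 sites can lie outside such a window, and the search covered these exact letters alone.

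Regulators of the cortex centred near 0, with a median of -0.053 and 16 of 23 tested negative, against 11196 of 21511 features. Cebpb, a stress-responsive transcription factor, was at -2.26, -0.93 and -0.42, lowest in pair 1 and negative on all 6 arrays. Nr2f1, the nuclear receptor COUP-TFI, was at 0.37, 0.71 and 0.42 and positive on all 6. Wt1, which acts ahead of Nr5a1 in the adrenal primordium, had a mean of -0.36 ± 0.33, and Sp1, a general activator, had -0.32 ± 0.23, but both were positive where arrays were left uncorrected (0.042 and 0.024). Zonation signals had large single members: Wnt4, made by the outer zone, was at -2.19, -0.70 and -0.40, negative on all 6 arrays, and Wnt2b, a capsular Wnt, was at 0.93, 0.55 and 0.43, positive on all 6. These Wnt ligands were thus of opposite sign in every pair, each largest in pair 1, and their 10-day means were 0.18 and -0.25. Sfrp1, a secreted Wnt antagonist, was at 0.45, 1.89 and 1.33 and positive on all 6 arrays. Shh and Gli1, the cortical Hedgehog ligand and its target, were at 0.092 ± 0.054 and 0.32 ± 0.40. Over the 26 Hedgehog and Wnt genes tested the median was 0.021. Amhr2, a gonadal receptor, was at -0.26, -0.98 and -1.25, negative on all 6 arrays, in a gonadal-type list with 7 positive and 12 negative members. Kcnj5, a potassium channel of aldosterone-producing cells, was at 0.27, 0.37 and 0.40, and Kcnk2, another, was at 0.49, 0.49 and 0.29. The Kcnk2 arrays differed by dye, at -0.056 and 1.03 in pair 1 and 0.040 and 0.94 in pair 3. These channels and pumps had 3 of 12 members positive and 0 negative at an unadjusted p under 0.05.

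Of 5 X-zone genes, Akr1c18 and Pik3c2g set the female pair apart among the adult pairs. Akr1c18, the 20-alpha-hydroxysteroid dehydrogenase that marks the X-zone, was at 0.069, 0.18 and -2.56, and the arrays of pair 5 read -2.55 and -2.56. Pik3c2g, also an X-zone marker, was at 0.26, 0.034 and -5.77. Both female arrays were strongly negative, at -5.97 and -5.57, while the male arrays were split by dye between -1.65 and 2.05. Abcb1b, a transporter listed with the X-zone, behaved otherwise, at -2.13, -0.78 and -0.77 and lowest in pair 1. Thrb, a thyroid hormone receptor, was at -0.11 ± 0.036, and Cyp17a1, the 17-alpha-hydroxylase, was at -0.18 ± 0.15. All 5 X-zone genes had a negative mean, but a single one, Abcb1b, was negative on all 6 arrays. Without pair 5 the means of Akr1c18 and Pik3c2g were 0.12 and 0.15, and on uncorrected arrays that of Cyp17a1 was 0.11. In the 10-day pairs 11, 13 and 15, of which pair 15 was female, Akr1c18 was at -1.47, -0.27 and 0.56. Pik3c2g was at -1.92, -0.90 and -0.12 in the same pairs.

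Among the genes chosen as farthest from the other pairs in pair 5 was Bhmt, a methyltransferase of homocysteine, at 0.41, -0.62 and -6.44. Apoc1, an apolipoprotein, was chosen as far above the other pairs in pair 1 and was at 0.24, 0.13 and -6.28. Its pair 5 arrays read -5.45 and -7.10, and its 10-day pairs were at 2.86, -2.81 and -1.52. Acsm4, a medium-chain acyl-CoA synthetase, was at 0.79, -0.14 and -4.64. In these 3 genes the male pairs stayed within 1 of 0. Aldh1a1, a retinal dehydrogenase, was at 1.38, 1.59 and -1.82, and Ier3, an early response gene, was at 2.01, 2.14 and -1.30, so the female pair had the opposite sign to both males. Above the others in pair 5 were Deptor, an mTOR inhibitor, at -3.75, 0.58 and 2.52, Osgin1, an oxidative stress gene, at -0.062, -0.14 and 2.31, and Abhd4, a lipid hydrolase, at 0.29, -1.18 and 1.90. In all, 158 genes lay more than 1 above and 177 more than 1 below the mean of the other pairs in pair 5, of 8674 with the same sign on both arrays and the arrays within 1. The male pairs departed too, with 125 above and 114 below of 7966 in pair 1 and 135 above and 368 below of 9241 in pair 3. With a single female pair, sex and the individual pair cannot be told apart.

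**Figure D3:**
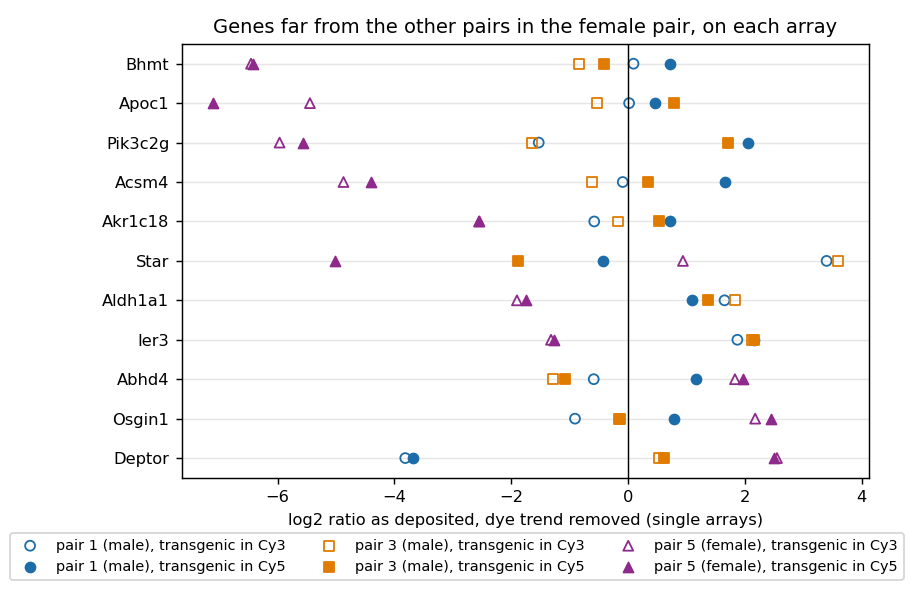
Log2 ratio of each single array on the horizontal axis for 11 genes, with open symbols for the transgenic RNA in Cy3 and filled symbols for it in Cy5. The female points of Bhmt, Apoc1, Pik3c2g, Acsm4 and Akr1c18 lie left of every male point, those of Deptor and Osgin1 lie right of them, and the arrays of Star differ by dye in all pairs.

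Several genes of lipid handling were negative in every pair. Apoe, the apolipoprotein that cortical cells and macrophages both make, was at -0.63, -1.89 and -2.42, negative on all 6 arrays with a 10-day mean of 0.11. Lpl, lipoprotein lipase, was at -1.52, -1.33 and -0.97, and its 10-day mean was 0.48. Abcg1, a cholesterol exporter, had a mean of -0.60 ± 0.47 and was negative on all 6. Abca1, another exporter, had a mean of -0.38 ± 0.10. The Abca1 arrays differed by dye, at -0.010 and -0.97 in pair 1 and 0.026 and -0.73 in pair 3. Fdps, an enzyme of cholesterol synthesis, was at -0.75, -0.26 and -1.54. Its arrays also differed by dye, at -1.48 and -0.021 in pair 1 and -0.85 and 0.34 in pair 3. Dgat2, which makes triglyceride, was at -0.71, -0.28 and -1.43. Over cholesterol synthesis, uptake and storage 28 genes were tested, 1 positive and 6 negative at an unadjusted p under 0.05, and the median was -0.038. Most members thus lay near 0 beside a few large negative ones. Lpl and Dgat2 are also members of the adipocyte list, of which 10 of 14 were negative, 3 at an unadjusted p under 0.05 against 0 positive, with a median of -0.16. In 10-day pair 15 that list had a median of 1.01 and Lpl was at 1.63, and the part of fat around the gland in these genes was not tested.

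Most immune lists had negative medians, lowest in pair 3. Granulocyte and mast cell genes were near 0, with a median of -0.059 over 15 tested, a pair 1 median of 0.18 and 1 positive and 0 negative member at an unadjusted p under 0.05. Of 17 genes of MHC class II and antigen presentation 16 were negative, 12 at an unadjusted p under 0.05 and 8 on all 6 arrays, with a median of -0.87. By pair the medians were -0.38, -1.61 and -0.28, and over the 10-day means the median was 0.0090. Without pair 3 the median was -0.46. H2-Ab1, a class II chain, was at -1.08, -2.81 and -1.25. H2-K1, a class I chain, was at -1.07, -2.49 and -0.92, while its 10-day mean was 0.47 over arrays that split by dye in every pair. Psmb8, an immunoproteasome subunit, was at -0.98, -2.14 and -0.51. All pairs were negative for these 3 genes, and pair 3 was the lowest for each.

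Macrophage genes had 20 of 26 negative, 12 at an unadjusted p under 0.05 against 1 positive, a median of -0.57 and pair medians of -0.17, -1.04 and -0.44. The median was 0.0044 over the 10-day means and -0.23 without pair 3. Aif1, a macrophage calcium-binding protein, was at -0.77, -2.84 and -1.90. C1qc, a complement chain that tissue macrophages make, was at -1.16, -1.67 and -0.88. Ctss, a lysosomal protease, was at -0.37, -2.49 and -1.31. Cd14, the endotoxin co-receptor, went the other way at 0.74, 0.94 and 0.16. For lymphocyte genes pairs 1 and 5 centred near 0. B cell genes had pair medians of 0.082, -2.64 and -0.067, and T and NK cell genes had 0.014, -1.43 and -0.10. Cd79a, a chain of the B cell receptor, was at -0.29, -4.18 and -0.017, and Cd79b, its partner, was at 1.32, -5.18 and -0.075. The B cell median over 18 genes was -0.94, and it was 0.038 without pair 3. For T and NK cells it was -0.50 and -0.039. The part of these lymphocyte genes in the other immune values of pair 3 was not tested.

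Interferon-response genes had 29 of 31 negative, 16 at an unadjusted p under 0.05 and 9 on all 6 arrays. The median was -0.46, by pair -0.24, -0.74 and -0.15, and it was -0.21 without pair 3. Oas1g, a sensor of viral RNA with close paralogs, was at -1.52, -2.09 and -0.58. Irf7, the regulator of interferon genes, was at -1.24, -1.89 and -0.67. Rtp4, an interferon-induced receptor transporter, was at -1.25, -2.11 and -0.69. Pair 3 was lowest and pair 5 nearest 0 in all of them. Gbp2, a guanylate-binding protein of cell defence, was at -0.61, -1.04 and -0.82, and Gbp3, its relative, was at -0.86, -0.86 and -0.32. Trim30a, of the same response, was at -0.49, -1.51 and -0.82.

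Of the interferon genes, 4 promoters are given to show the interferon-stimulated element, here GAAA, any 2 bases and GAAA again, to which interferon regulatory factors and STAT complexes bind, in capitals within the 150 bases before the start (GRCm38.p6, 5′ to 3′ on the gene's strand).
Oas1g, chr5:120887614-120887763, minus strand: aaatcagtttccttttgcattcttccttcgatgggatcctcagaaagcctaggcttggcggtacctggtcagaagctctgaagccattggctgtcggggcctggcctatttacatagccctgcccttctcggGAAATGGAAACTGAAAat
Gbp2, chr3:142620513-142620662, plus strand: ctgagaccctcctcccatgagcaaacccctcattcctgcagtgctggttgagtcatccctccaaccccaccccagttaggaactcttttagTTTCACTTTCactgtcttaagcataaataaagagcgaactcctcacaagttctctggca
Gbp3, chr3:142559894-142560043, plus strand: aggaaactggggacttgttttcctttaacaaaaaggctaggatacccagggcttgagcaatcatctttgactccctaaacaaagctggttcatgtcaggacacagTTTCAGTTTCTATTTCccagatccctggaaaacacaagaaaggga
Trim30a, chr7:104465194-104465343, minus strand: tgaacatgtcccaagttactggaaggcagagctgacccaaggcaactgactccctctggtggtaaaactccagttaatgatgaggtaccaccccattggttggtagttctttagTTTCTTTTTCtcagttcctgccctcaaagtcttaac
Matches on either strand were counted, and those in Oas1g and Gbp3 overlap. The first match begins 18 bases before the start in Oas1g, 59 in Gbp2, 45 in Gbp3 and 36 in Trim30a. The element was in the windows of 14 of 23 interferon-response genes (60.9%), against 3.99% of all genes and 15.0% of the leading genes (Pcsk1, Samt3 and Slfn8). The list was chosen as interferon-induced, so this share describes the list and not the mice.

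**Figure D4:**
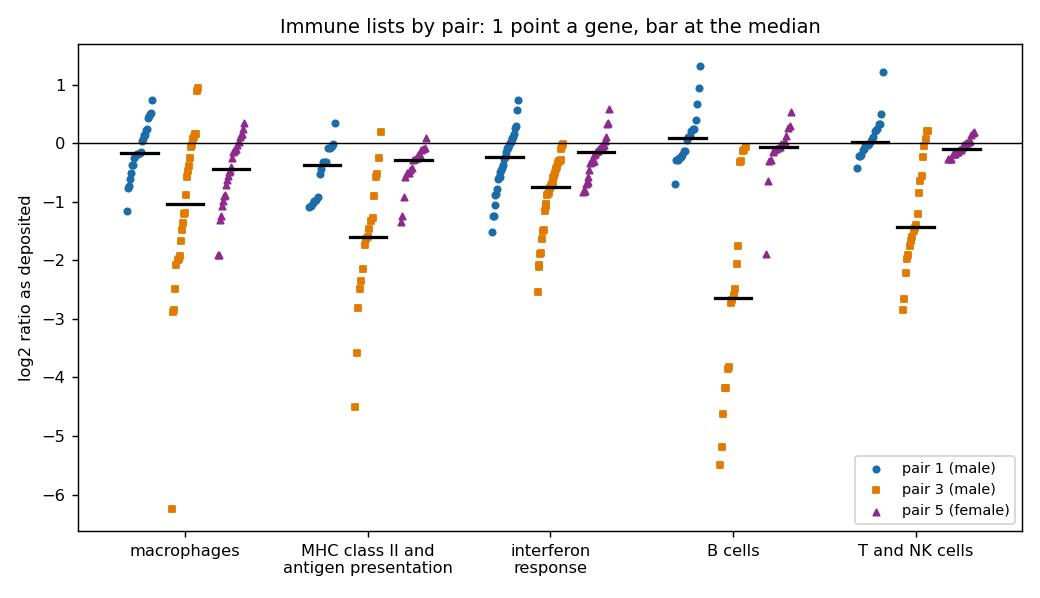
Each point is a gene of a list in 1 pair, the vertical axis is its log2 ratio as deposited, and the bar is the list median. In B cell and T and NK cell genes pairs 1 and 5 centre near 0 and pair 3 lies far below, while macrophage, antigen presentation and interferon genes have all 3 medians below 0.

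Other cell functions had group medians nearer 0. Cytosolic ribosomal proteins had 54 of 70 negative and a median of -0.19, or 0.13 on uncorrected arrays, with pair medians of -0.14, -0.42 and -0.031 and 0.11 over the 10-day means. At an unadjusted p under 0.05, 2 were positive and 9 negative, and 12 of the 70 lay near the scanner's limit. Rps28, the most negative member, was at -0.14, -3.69 and -1.59. Proteasome subunits had 27 of 38 negative and 9 negative on all 6 arrays, with a median of -0.12. Psmd5, a proteasome assembly chaperone, had a mean of -0.37 ± 0.12. Cell cycle and replication genes had 11 negative and 0 positive of 41 at an unadjusted p under 0.05, with a median of -0.086, which was 0.25 on uncorrected arrays. Ccnd1, cyclin D1, was at -0.39, -0.20 and -0.43 and negative on all 6 arrays. Mcm3, of the replicative helicase, was at -1.75 and -0.85 in pairs 3 and 5 and had no value in pair 1. The 80 respiratory chain genes centred on 0 with 39 positive, and Ndufa4, an electron transport subunit, was at 0.48, 0.59 and 0.64. Hspa5, the chaperone of the endoplasmic reticulum, was at 0.88, 0.92 and 0.28 and positive on all 6.

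Stromal genes were mildly negative. Capsule, fibroblast and smooth muscle genes had 29 of 33 negative, 4 at an unadjusted p under 0.05, with a median of -0.16 against -0.088 over the 10-day means, and 0.16 on uncorrected arrays. Col5a3, a fibrillar collagen chain, was at -0.78, -0.85 and -0.96, with a 10-day mean of -1.03. Col18a1, the basement membrane collagen that yields endostatin, was at -0.98, -0.47 and -0.35. Endothelial genes had a median of -0.16 over 25, with Flt1, a VEGF receptor, at 0.43 ± 0.37 and Egfl7, an endothelial matrix protein, at -0.33 ± 0.027. The Egfl7 arrays split by dye, at 0.065 and -0.66 in pair 1 and 0.43 and -1.10 in pair 3, which the small SD does not show. Among 42 junction genes, Cdh2, N-cadherin, was at -0.51, -0.55 and -0.73, and Cldn15, a claudin, was at 0.68, 0.92 and 0.64. Both kept their sign on all 6 arrays, and Cdh2 had a 10-day mean of 0.051. Among sulfation and heparan sulfate genes, Sulf1, which removes sulfate from heparan chains, was at -1.06, -0.72 and -0.40, opposite to Hs3st2. Mgst3, a microsomal glutathione transferase, was at 0.55, 0.65 and 0.93, opposite to Mgst1. The pair 1 arrays of Mgst3 split by dye, at -0.20 and 1.31. Nqo1, a quinone reductase, was at -0.36, -0.35 and -1.29 and negative on all 6 arrays.

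**Figure D5:**
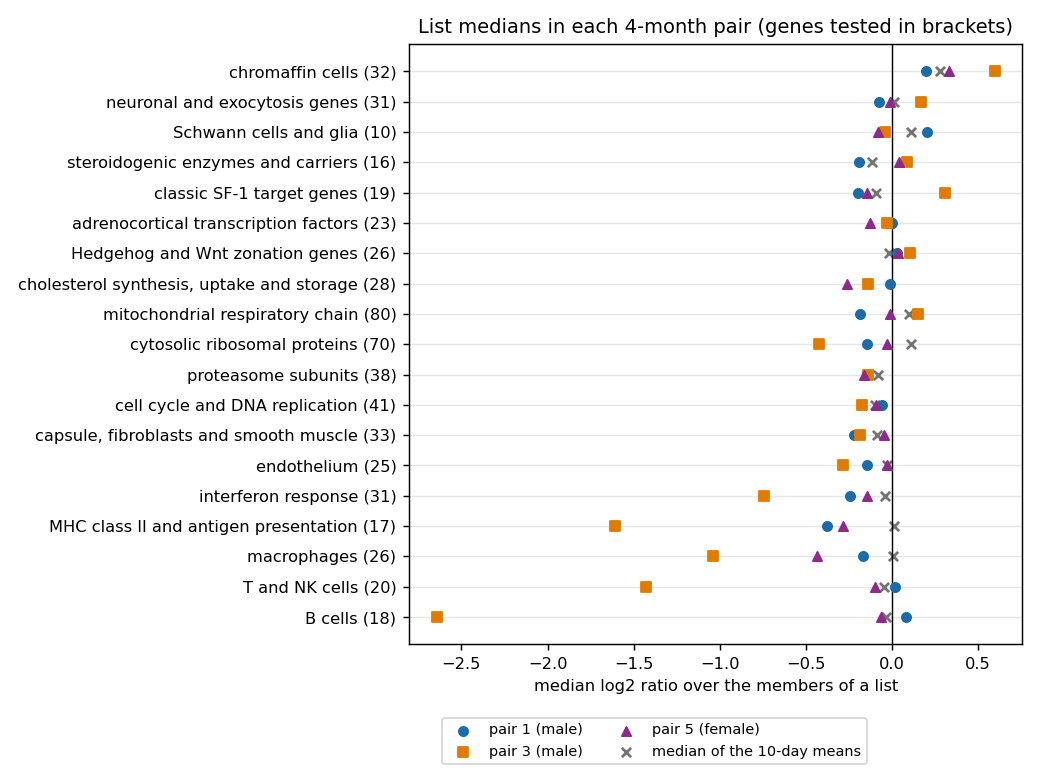
Median log2 ratio over the tested members of 19 gene lists in pairs 1, 3 and 5, with the median of the 10-day means as a cross. Chromaffin genes are right of 0 in every pair, and pair 3 is far left for B cell, T and NK cell, antigen presentation and macrophage genes.

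The pairs themselves agreed weakly. Over features, Pearson's r was 0.245 between pairs 1 and 3 (n = 20947), 0.132 between pairs 1 and 5 (n = 20930) and 0.18 between pairs 3 and 5 (n = 21264), with Spearman's rho of 0.269, 0.165 and 0.163. These are descriptions across genes, which share arrays and spots and are not replicates. The spread across features was widest in pair 3, with an SD of 0.458 against 0.366 in pair 1 and 0.296 in pair 5. Of 120 features with a mean under -1 and a value in all pairs, pair 3 was the lowest for 92. Pair 3 was also the highest for 19 of 27 features with a mean above 1.

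Each male pair had its own set. In pair 3, Marco, a scavenger receptor of spleen and lymph node macrophages, was at 0.15, -6.25 and -0.15, and Fcmr, the IgM receptor, was at 0.25, -4.62 and -0.099. Pnliprp2, a pancreatic-type lipase, was at -0.11, -4.97 and 0.033, while the exocrine pancreas list had a median of 0.0066 in that pair. Above the other pairs, pair 3 had Nfil3, a clock-linked repressor, at -0.013, 2.27 and -0.70, and Egr1, an immediate early factor, at -0.97, 1.47 and -1.28. In pair 1, Hspa1b, the inducible heat shock protein, was at -3.84, 0.62 and 0.76. Avpr2, the renal vasopressin receptor, was at -1.21, 1.53 and 1.45. Neat1, a nuclear noncoding RNA, was the reverse, at 0.90, -1.82 and -1.98. Dbp, a clock output factor, was at -1.62, 0.042 and -0.96. The 21 immediate early genes tested had 0 members at an unadjusted p under 0.05 in limma.

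No feature passed an adjusted p of 0.05 for the difference between the adult and 10-day means in limma (0 of 21511, 0.0%), and 988 (4.59%) had an unadjusted p under 0.05. The smallest adjusted p for the difference was 0.934, which all genes named here share. H2-K1 was at -1.49 ± 0.87 at 4 months and 0.47 at 10 days, a difference of -1.96 (SE 0.39). Its 10-day arrays split by dye, at -1.27 and 1.77 in pair 11, -1.02 and 2.02 in pair 13 and -0.28 and 1.57 in pair 15. The 10-day mean of H2-K1, and so the difference, says little. Epb41l3 differed by -0.85 (SE 0.15) and Slfn8, a Schlafen gene of immune cells, by -0.69 (SE 0.15). Lilrb4a, an inhibitory receptor of myeloid cells, was at -0.63 ± 0.22 and 0.45, a difference of -1.09 (SE 0.20). On the other side, Mgst3 was at 0.71 ± 0.20 and -0.64, a difference of 1.35 (SE 0.19), although its arrays in pair 1 read -0.20 and 1.31. Slc38a5, an amino acid transporter, was at 0.56 ± 0.23 and -0.72. Odc1, which starts polyamine synthesis, was at 0.93 ± 0.60 and -0.64. Hdc, which makes histamine, was at -0.11 ± 0.26 and -1.49, so its shift came from the 10-day side.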

How the data were processed

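Arrays with 2 colours compared adrenal RNA of each transgenic mouse with that of its littermate. The authors deposited 1 log2 ratio per spot and array, for 25344 spots, per the file headers. Values on base 2 gave ratios of whole numbers for 100.0% of those checked, so the scale is log2 and the arrays were not centred. The sources used here do not describe scanning or background steps, and 4.3 to 6.59% of values were empty at 4 months. From these whole numbers, on the arrays with transgenic RNA in Cy3, a relative signal was recovered as the 75th percentile per probe over all pairs. A factor common to both channels of a spot is lost in this step, so single spots can be ranked too low. The trend of every array, in either orientation, on this signal was removed by loess (span 0.3). Array medians as deposited were -0.512 to -0.236 with transgenic RNA in Cy3 and 0.878 to 1.502 in Cy5. Dye orientation cannot be separated from the hybridization series, but each pair holds both. Probes were named from the platform annotation (21082 with 1 gene, 30 with several, 4232 with none), and probes of a gene were averaged. limma 3.58.1 in R 4.3.3 tested group means of the 6 pairs two-sided, with Benjamini-Hochberg adjustment over 21511 features and a threshold of 0.05. The pairs are separate mice, and the arrays of a pair are technical.

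Gene lists (40) are described by counts and medians, with no test. Genes are named by rule: the 12 of smallest p per sign with the same sign on all 6 arrays, up to 4 per list by p, fixed cortical, zonal and medullary genes, the 5 farthest genes per pair and side, and the 5 leading genes per side of the age difference. Outside the rule, and chosen after their values were seen, are Adh7, Alas1, Cd14, Cd79a, Chga, Chgb, Ctss, Cyb561, Cyp11b2, Gata3, Gbp2, Hmgcs1, Ly6d, Mc2r, Mrap, Npy, Nr2f1, Penk, Rps28, Scg3, Slc18a2, Trim30a, Tspo, Vip and the neighbours of Nr5a1. Members and lists were chosen with earlier results of these data known. Promoters are RefSeq sequences (GRCm38.p6). The fits were tested on simulated data, and alternatives covered array correction and scale, fits, filters and each pair left out.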

Additional observations from a re-analysis of the deposited data

How the results depend on the processing

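With arrays uncorrected, 2532 features passed the adjusted threshold at 4 months and 14 for the difference from 10 days, and the unadjusted counts were 8921 positive and 205 negative. The list medians then were 0.68 for chromaffin, 0.35 for steroidogenic, 0.33 for SF-1 target, -0.073 for interferon, 0.13 for ribosomal, 0.25 for cell cycle and 0.16 for capsule genes. Reversals of sign there were looked for only among the genes named by rule. Those at an unadjusted p under 0.05 were Bub1b (0.088), Cubn (0.17), Hspd1 (0.034), Nos3 (0.068), Rpl32 (0.058), Sox10 (0.042), Sp1 (0.024) and Wt1 (0.042). Genes not past it that turned positive included Nr5a1 (0.15) and Cyp17a1 (0.11). Other list members turned too. Negative counts fell from 27 to 6 of 41 cell cycle genes, from 8 to 1 of 16 steroidogenic genes and from 5 to 1 of 32 chromaffin genes. The fit of 12 arrays with a dye term and the pair as a random block called 290 features. Without 1 adult pair at a time, 0 to 2 features passed (2 without pair 5), unadjusted positive counts were 787 to 1330 (lowest without pair 1, and 1014 to 1367 without a 10-day pair), and the cell cycle median was -0.18 to -0.038. Without any 1 of the 6 pairs, unadjusted counts for the difference were 694 to 1526 (highest without pair 5). The other settings, which were median centring, a loess span of 0.6, array scaling, the ordinary model, the 4-month pairs alone, single arrays accepted, all pairs required, bright features alone, probes apart and a sex term, kept the adjusted counts at 0. Every value is a ratio within a littermate pair; between adult and 10-day groups no pairing exists. No paired analysis was possible because those 2 groups share no replicate numbers. Signal over background was not available, so dim spots could not be bounded. Olfactory receptor genes were listed as a dim control, with 658 tested and a median of 0.033. At an unadjusted p under 0.05 in limma 44 of them were positive and 9 negative, beside 6.09% and 6.25% of all features. On all 6 arrays 33 were positive and 6 negative, and the highest mean was 1.17, for Olfr229. The log2 signal of Olfr229 was 12.07 against a list median of 7.68, so that spot was not dim.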
